A study of Mus musculus with 2 samples.

Results

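The ribosomal protein genes encode the proteins of the cytosolic ribosome, and they were compared here between 2 single-cell libraries of subcutaneous A20 tumours, 1 taken after TAK-981 and 1 after vehicle. Members were all rows of the count matrix whose symbol is Rpl or Rps with a number, with or without a short suffix, together with Rplp0, Rplp1, Rplp2 and Rpsa. This gave 84 genes of 28692, of which 32 belong to the small and 52 to the large subunit. A20 is a mouse B cell lymphoma line, and the hosts were Balb/c mice that had received 1000000 cells each. When tumours had reached about 300 mm3, mice were injected intravenously with TAK-981 at 7.5 mg/kg or with 20% HPbCD, a cyclodextrin, as vehicle, and tumours were taken after 8 h. TAK-981 blocks the first enzyme of SUMO conjugation, the attachment of a small ubiquitin-like protein to other proteins. Both libraries came from tumours dispersed by mechanical means and depleted of dead cells. The labels give neither the number of mice behind each library nor their age or sex.

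The ribosome joins amino acids into protein, and its small subunit reads the mRNA while its large subunit forms the peptide bond. Most of these mRNAs begin with a C followed by a run of pyrimidines, the 5′ terminal oligopyrimidine start, through which their translation follows mTOR signalling. Growing lymphoma cells and dividing T cells are known to make many ribosomes, and mature macrophages fewer.

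The TAK-981 library held 2396 barcodes with a median of 11840.5 unique molecular identifiers (UMIs), and the vehicle library held 2579 with a median of 19608. Barcodes with 10% or more mitochondrial UMIs, 376 (15.7%) after TAK-981 and 124 (4.81%) after vehicle, were left out of the classes. A20 cells were those with at least 1 UMI of the B cell receptor gene Cd79a and none of Cd3d, Cd3e, Cd3g or Lyz2 (1754 after TAK-981 and 2191 after vehicle). T cells had a sum of at least 2 UMIs over the 3 Cd3 genes (45 and 60 cells), and myeloid cells at least 5 UMIs of Lyz2, the lysozyme of monocytes and macrophages (39 and 44 cells). No cell met the rule of more than 1 class, and 182 and 160 cells met none. The 2 libraries had 11 barcode sequences in common. Of 9 B cell markers, 9 were detected in A20 cells of both libraries, at 32.9 and 31.3 UMIs per 10000, and any host B cells would meet the same rule. A single library per arm left no test of TAK-981 against vehicle, and every interval below is a 95% interval for counting error only. UMI counts relate each gene to the total, so fewer mRNAs of a gene and more mRNAs of other genes cannot be told apart.

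In A20 cells the ribosomal protein genes together took nearly the same share of UMIs in both libraries. The share was 34.6% (exact binomial interval 34.56 to 34.59) of 32464036 UMIs after TAK-981 and 35.0% (34.99 to 35.02) of 53011253 after vehicle. The log2 ratio, TAK-981 over vehicle throughout, was -0.018 (-0.019 to -0.017). Per cell, the median share was 34.4% after TAK-981 (quartiles 28.7 and 39.6) and 35.0% after vehicle (30.8 and 39.7), so the cells of both libraries overlapped almost completely. The sign of this small difference depended on the cells taken, since the log2 ratio was 0.0068 where only cells with under 5% mitochondrial UMIs were kept.

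A tail of A20 cells with few ribosomal protein UMIs was larger after TAK-981. Shares under 20% were found in 117 of 1754 cells after TAK-981 (6.67%, 5.55 to 7.94) and in 82 of 2191 after vehicle (3.74%, 2.99 to 4.62). With every cell thinned to 1000 UMIs, which removed no cell, the values were 7.18% and 3.79%. These cells had a median mitochondrial share of 6.68% and 6.80%, against 2.51% and 2.01% in the other A20 cells, and about 8518 and 9890.5 UMIs per cell against 17080 and 22974. Depth and mitochondrial share thus differed with the tail in both libraries, and their part in its size was not tested.

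T cells had a lower ribosomal protein share after TAK-981. It was 27.3% (27.2 to 27.5) of 444730 UMIs against 31.5% (31.4 to 31.6) of 862615, a ratio of 0.868 and a log2 ratio of -0.20 (-0.21 to -0.19). The median cell had 25.3% (quartiles 20.1 and 34.3) after TAK-981 and 31.1% (26.4 and 37.5) after vehicle, and the 2 sets of cells overlapped over most of their range. Thinned to 1000 UMIs, the medians were 25% and 30.25%. Cells under 20% numbered 11 of 45 and 7 of 60, which is 24.4% (12.9 to 39.5) and 11.7% (4.82 to 22.6). Transcripts of the tumour cells were present in the T cells of both libraries: B cell markers summed to 7.08 UMIs per 10000 after TAK-981 (8 of 9 detected, Cd22 at 0) and 11.2 after vehicle (9 of 9). Myeloid markers were higher in the T cells after TAK-981, at 1.26 UMIs per 10000 (5 of 12 detected, in 16 of 45 cells). After vehicle they stood at 0.441 (4 of 12, in 17 of 60 cells). C1qa, C1qb, C1qc, Adgre1, Fcgr3 and Ms4a7 were at 0 in both libraries, and Lyz2 was at 0 after vehicle. Myeloid cells themselves had a low ribosomal protein share. The origin of the myeloid marker UMIs and their part in the lower T cell share were not tested. Neutrophil, fibroblast and erythroid markers were at 0 UMIs in the T cells of both libraries. Without the 10 and 13 T cells that held Cd79a or Lyz2 UMIs the log2 ratio was -0.23.

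T cells were then divided by UMIs of Cd8a or Cd8b1, the chains of the CD8 coreceptor of cytotoxic T cells, and the size of the difference in cells without them depended on how cells were weighted. In the 22 and 37 cells with such a UMI the pooled share was 25.8% (25.6 to 26.0) after TAK-981 and 33.3% (33.1 to 33.4) after vehicle, a log2 ratio of -0.37, and the median cell had 25.6% and 31.9%. In the 23 and 23 T cells without such a UMI the pooled share was 28.6% (28.4 to 28.8) and 28.7% (28.5 to 28.8), a log2 ratio of -0.0031, but the median cell had 23.7% after TAK-981 and 28.3% after vehicle. With each cell counted equally, the log2 ratios were -0.32 with and -0.074 without CD8 UMIs. After leaving out cells with a Cd79a UMI, the pooled shares were 25.8% and 31.7% in the 19 and 31 cells with CD8 UMIs (median cell 24.3% and 31.6%) and 24.7% and 25.6% in the 17 and 16 cells without (21.8% and 25.6%). The split was made after the data had been seen, the difference between the 2 sets of cells was not tested, and a cell without a CD8 UMI may still be a CD8 T cell. Median depth was 6927 UMIs after TAK-981 and 10393 after vehicle in cells with CD8 UMIs and 7210 and 8707 in cells without, and its part in the result was not tested.

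Myeloid cells held the lowest share, at 14.3% (14.1 to 14.4) of 362880 UMIs after TAK-981 and 14.9% (14.8 to 15.0) of 533937 after vehicle. Their log2 ratio was -0.066 (-0.082 to -0.050) and became 0.0055 in the 35 and 39 myeloid cells without Cd79a and Cd3 UMIs. Per cell, medians were 12.9% (quartiles 11.9 and 15.7) and 13.4% (12.3 and 15.8), so the cells of the 2 libraries overlapped. Myeloid markers summed to 314 UMIs per 10000 in these cells after TAK-981 (9 of 12 detected, C1qa, C1qb and C1qc at 0) and 331 after vehicle (12 of 12). Neutrophil markers summed to 2.12 UMIs per 10000 in myeloid cells after TAK-981 (3 of 5 detected, Cxcr2 and Retnlg at 0). After vehicle they stood at 0.487 (2 of 5, Cxcr2, S100a9 and Retnlg at 0). The part of these marker differences was not tested.

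**Figure D1:**
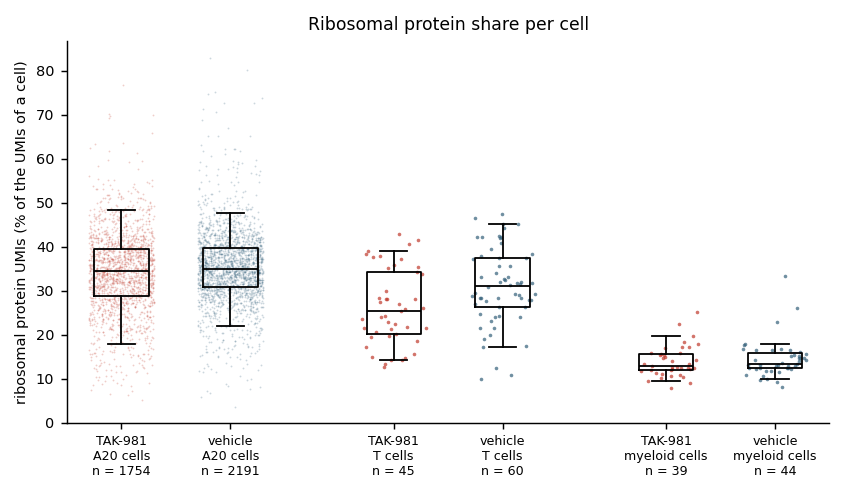
Share of ribosomal protein UMIs in each cell (vertical axis, % of the UMIs of the cell) for A20, T and myeloid cells of the TAK-981 and vehicle libraries; each point is a cell, boxes span the quartiles with the median as a line, and whiskers run from the 5th to the 95th percentile. Medians are 34.4% and 35.0% in A20 cells, 25.3% and 31.1% in T cells, and 12.9% and 13.4% in myeloid cells.

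Single genes were compared as UMIs per 10000 UMIs of the class, for members reaching 50 UMIs when both libraries were added: 81 of 84 in A20 cells and 80 in T and in myeloid cells. In A20 cells none of the 81 was at least 25% higher or at least 20% lower after TAK-981, limits that lie equally far from 0 on the log2 scale, while 15.9% of all 10639 genes measured there were as high and 4.02% as low. Their log2 ratios ran from -0.19 to 0.29 with a median of -0.038, against 0.054 over all genes. Counting intervals were narrow, with a median half-width of 0.0098, and lay above 0 for 29 members (30.3% of all genes), below 0 for 44 (17.7%) and across 0 for 8. Over all genes the median half-width was 0.15, so member intervals clear 0 more readily and these shares are not directly comparable. Small changes of opposite sign within the set therefore stood behind the nearly equal total. Small and large subunit genes had medians of -0.036 and -0.039.

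Within A20 cells the members were ordered by the length of their coding sequence. Spearman's rho between coding length and log2 ratio was -0.87 over 80 members, a description across genes of the same 2 libraries, and it was 0.25 over 7706 other genes with at least 500 UMIs. The 10 members under 300 coding bases had a median log2 ratio of 0.22, the 17 from 300 to 400 bases 0.063, the 22 from 400 to 500 bases -0.037, the 16 from 500 to 700 bases -0.083 and the 13 from 700 to 1000 bases -0.10. Other genes of the same length bins had medians of 0.038, 0.0047, -0.0036, -0.011 and -0.020. Up to 1000 bases the order by length was thus much steeper among ribosomal protein genes than among other genes. Above that, other genes went the other way, with medians of 0.024 from 1000 to 2000 bases and 0.14 from 2000 bases. The 2 members of 1000 to 2000 bases had a median of -0.14. This comparison was chosen after the ratios had been seen. Split at the median coding length of 456 bases, 29 of 40 measured shorter members and 2 of 40 longer ones had a ratio above 0, against 59.9% of all genes. The shorter members had a median of 0.050, which became -0.0038 when set against the median of all genes, and the longer ones had -0.081 and -0.14 on the same scales.

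**Figure D2:**
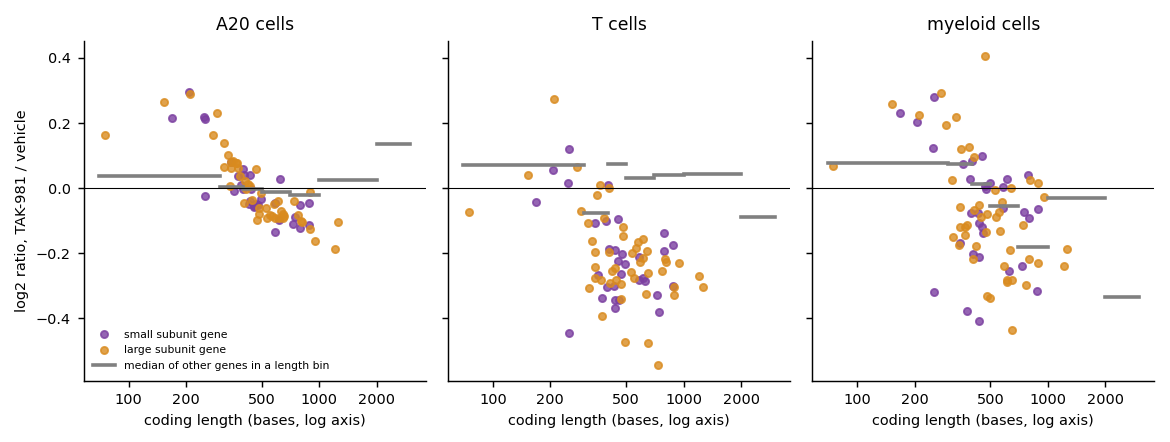
Log2 ratio of TAK-981 over vehicle (vertical axis) against coding length in bases (horizontal log axis) for each ribosomal protein gene, small subunit in purple and large subunit in orange, in 3 panels for A20, T and myeloid cells. Grey bars give the median of other genes with at least 500 UMIs in the same length bin, and in A20 cells the members run from 0.22 in the shortest bin to -0.10 between 700 and 1000 bases.

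The members with the highest ratios in A20 cells were all short. Rps28, a small subunit protein of 207 coding bases, had 23.0 UMIs per 10000 after TAK-981 and 18.7 after vehicle, a log2 ratio of 0.29 (0.28 to 0.31). Rpl38, with 210 coding bases and known from the Tail short mouse, in which its loss disturbs skeletal patterning, had 18.2 and 14.9 (0.29, 0.27 to 0.30). Rpl39, which lines the tunnel through which new protein leaves the ribosome, had 44.9 and 37.4 (0.27, 0.26 to 0.28). Rpl37 stood at 45.9 and 39.1 (0.23) and Rps21 at 25.5 and 21.9 (0.22). Rpl41, with 75 coding bases the shortest of all, had 91.9 and 82.0 (0.16). Each of these 6 genes was therefore higher after TAK-981 by more than its counting error, and none was 25% higher, with Rps28 nearest to it.

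At the other end stood longer members of both subunits. Rpl3, with 1209 coding bases a protein near the peptide-bond-forming centre, had 49.9 UMIs per 10000 after TAK-981 and 56.7 after vehicle, a log2 ratio of -0.19 (-0.19 to -0.18). Rplp0, the base of the stalk that recruits elongation factors, had 73.1 and 81.8 (-0.16), and Rps9, a small subunit protein of 582 coding bases, had 48.8 and 53.5 (-0.13). Rpl6 stood at 38.5 and 42.1 (-0.13). Rpl6l, an Rpl6-like gene with few UMIs and no coding length in the annotation, had 0.318 and 0.357 (-0.17, -0.28 to -0.058), and reads of Rpl6 and Rpl6l may have been split between near-identical copies. These genes were lower after TAK-981 beyond counting error, and Rpl3 was the lowest of all.

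The stalk proteins separated by length as well. Rplp0 binds the ribosome, while Rplp1 and Rplp2 form the mobile tips, and the log2 ratios in A20 cells were -0.16 for Rplp0 (951 coding bases), 0.0055 for Rplp1 (342 bases, 62.0 and 61.8 UMIs per 10000) and 0.081 for Rplp2 (345 bases, 40.8 and 38.6). Rpsa, also described as the laminin receptor precursor, had 86.8 and 93.8 (-0.11). Rps6, the substrate of S6 kinase downstream of mTOR, had 42.1 and 44.7 (-0.088). Rpl5 and Rpl11, which with 5S rRNA can bind Mdm2 and so act on p53, had 22.0 and 22.2 (-0.013, -0.026 to 0.00082) and 42.3 and 45.1 (-0.091). Rpl13a had 32.1 and 33.0 (-0.039). Of these genes the interval held 0 for Rplp1 and Rpl5 only.

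The order by length did not hold for a pair of copies. Rps27l is a copy of Rps27 known as a p53 target, and both have 252 coding bases. In A20 cells Rps27 had 26.5 UMIs per 10000 after TAK-981 and 22.9 after vehicle (0.21), while Rps27l had 4.61 and 4.69 (-0.024, -0.054 to 0.0049). The same pair stood apart in T cells, with 0.12 (0.016 to 0.23) for Rps27 against -0.45 (-0.80 to -0.10) for Rps27l, and in myeloid cells, with 0.28 (0.10 to 0.45) against -0.32 (-0.67 to 0.022). Rps27l was thus the only member under 300 bases with a ratio below 0 in A20 cells. That exception was picked out after its values had been seen.

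The short and long groups were then compared as a share of the ribosomal protein UMIs alone, which no scaling to other genes can change. Shorter members took 48.3% (48.23 to 48.29) of ribosomal protein UMIs in A20 cells after TAK-981 and 46.0% (45.97 to 46.01) after vehicle, a difference of 2.27 percentage points. In T cells they took 47.5% (47.2 to 47.8) and 46.0% (45.8 to 46.2), and in myeloid cells 47.9% (47.5 to 48.3) and 46.1% (45.8 to 46.5). The shift had the same direction in the 3 classes, with differences of 1.54 points in T and 1.76 in myeloid cells. The myeloid difference was 0.23 points when each cell was thinned to 1000 UMIs.

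Depth and mitochondrial share also moved with the short share inside each library. When A20 cells were divided into 4 depth groups by UMIs per cell, with limits at 10859, 19315 and 29759 UMIs set over both libraries, the short share was 49.8, 49.0, 48.1 and 47.4% after TAK-981 from the shallowest to the deepest group. After vehicle it was 47.1, 47.3, 46.2 and 45.4%. The TAK-981 value was higher in each group, by 1.73 to 2.69 points. Over bins of mitochondrial share of 0 to 1, 1 to 2, 2 to 3, 3 to 5 and 5 to 10%, the TAK-981 values were 47.7, 47.2, 48.1, 49.5 and 51.4% and the vehicle values 45.6, 45.2, 46.2, 48.3 and 49.9%. The difference was 1.20 to 2.11 points within these bins, less in each than the 2.27 points over all cells, and smallest between 3 and 5%. Cells within a group could still differ, as in the shallowest depth group, where median depth was 7296 UMIs after TAK-981 and 8114 after vehicle and median mitochondrial share 4.09% and 2.39%. Depth and mitochondrial share were not matched together, and their part in the difference that remained was not tested. Median mitochondrial share over all A20 cells was 2.60% after TAK-981 and 2.05% after vehicle.

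**Figure D3:**
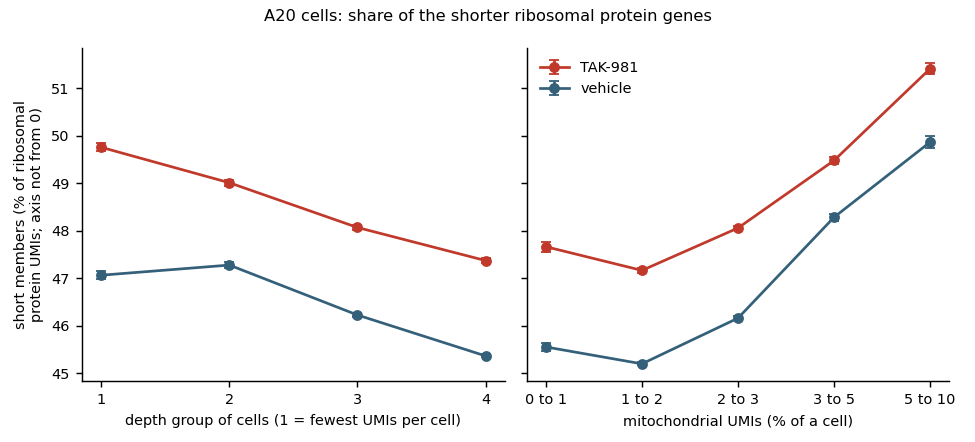
Share of the shorter ribosomal protein genes in all ribosomal protein UMIs of A20 cells (vertical axis, %, not starting at 0), by depth group, from fewest to most UMIs per cell (left) and by bin of mitochondrial share (right), TAK-981 in red and vehicle in blue with 95% counting intervals as bars. TAK-981 lies above vehicle in each of the 4 groups and 5 bins, by 1.20 to 2.69 percentage points.

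Start sequences of these genes are shown because the pyrimidine start is the feature through which ribosomal protein mRNAs are held to be controlled together. The windows run from 10 bases before to 20 bases from the annotated start and are RefSeq sequence of build GRCm38.p6, matched by symbol, with the gene's own strand 5′ to 3′. Capitals mark each run that opens with C and goes on with at least 4 bases that are each C or T, and the annotated start is the base that follows the first 10.
Rps28, chr17:33824543-33824572, minus strand: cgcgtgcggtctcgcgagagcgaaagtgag
Rpl38, chr11:114668570-114668599, plus strand: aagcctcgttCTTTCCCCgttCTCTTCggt
Rps21, chr2:180257369-180257398, plus strand: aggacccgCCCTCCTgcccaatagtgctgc
Rps27, chr3:90213629-90213658, minus strand: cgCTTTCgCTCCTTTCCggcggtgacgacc
Rplp0, chr5:115559457-115559486, plus strand: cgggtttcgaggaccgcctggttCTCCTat
Rps9, chr7:3704031-3704060, plus strand: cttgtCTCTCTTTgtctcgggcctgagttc
Rps6, chr4:86857348-86857377, minus strand: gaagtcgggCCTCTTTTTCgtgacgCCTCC
Rpl14, chr9:120571507-120571536, plus strand: ggCCCTCTCTCTTCTCgctgagcgccgcca
The first 4 had a ratio above 0 and the other 4 a ratio below 0 in A20 cells. Runs of pyrimidines occur on both sides, while Rps28, the highest of all, has none in its window. The windows shown are a selection and hold start runs more often than all members with a window. Of the high genes not shown, Rpl37 and Rpl41 have no run. Rpl39 has a run that reaches its annotated start, where the base is a T and not a C, and another run after it. Of the low genes not shown, Rpl6 has a run away from its start, and Rpsa and Rps4x have none. For Rps21 the first of its annotated starts is shown. Of 63 members with a window, 13 (20.6%) had a run that includes the annotated start as its C, against 3.01% of 27025 genes, and 42 (66.7%) had a run anywhere in the 30 bases, against 39.6%. A start run was present in 8 of 33 shorter members (24.2%) and in 5 of 30 longer ones (16.7%). Annotated starts can lie some bases away from the start used in these cells, so a missing run says only that these letters are not in this window.

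In T cells most members were lower after TAK-981, and the shortest were mixed. The median log2 ratio over 80 members was -0.23, against -0.029 over all genes, with intervals below 0 for 66 members (11.3% of all genes) and above 0 for 2 (11.2%). The median half-width was 0.091 for members and 0.62 for all genes, so member intervals clear 0 more readily and these shares are not directly comparable. At least 20% lower were 14 of 80 (17.5%), where 23.1% of 3307 genes were as low, and 0 were 25% higher, where 20.9% of all genes were. Among genes with at least 500 UMIs, 12 of 78 members were 20% lower, against 11.0% of 326 genes. Modestly lower levels of most members, more than large differences of single genes, thus made up the lower T cell share. The count of 14 was 24 in T cells without Cd79a and Lyz2 UMIs, 25 when each cell counted equally, and 7 after scaling to the median of all genes.

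The lowest T cell members with at least 100 UMIs were Rpl14 and Rpl12. Rpl14 had 21.3 UMIs per 10000 after TAK-981 and 29.6 after vehicle (-0.47, -0.58 to -0.37). Rpl12, a protein next to the stalk, had 17.0 and 23.6 (-0.47, -0.59 to -0.35). Rps6 had 28.4 and 36.9 (-0.38, -0.47 to -0.28), and Rpl5 14.7 and 18.4 (-0.33). Rpl13 lay just inside the limit of 20% lower with 68.9 and 86.3 (-0.32), and Rpl36a just outside it with 15.9 and 19.6 (-0.31). On the other side, Rpl38 had 15.4 and 12.8 (0.27, 0.13 to 0.41), the highest ratio of all members in T cells, and Rpl37a had 31.5 and 30.2 (0.064, -0.031 to 0.16). The 10 members under 300 coding bases had a median of 0.027, with 6 above 0 and 4 below, among them Rpl41, the shortest of all (-0.074, -0.14 to -0.010), and Rps27l. Members of 300 to 400, 400 to 500, 500 to 700 and 700 to 1000 bases had medians of -0.20, -0.25, -0.24 and -0.25. Spearman's rho with coding length was -0.41 over 80 members. In T cells the order by length therefore lay mainly between the shortest bin and the rest.

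Divided by CD8 UMIs, the T cell members differed in number. In cells with a Cd8a or Cd8b1 UMI 53 of 79 measured members were at least 20% lower, with a median of -0.39, where 25.8% of all genes were as low. In cells without such a UMI 1 of 79 was, with a median of -0.024, where 26.9% of all genes were. With each cell counted equally these numbers were 44 and 3 of 79. They come from 22 and 37 and from 23 and 23 cells, and the difference between them was not tested. Cells with a Cd79a UMI were included, and the members were not counted without them. In the set without CD8 UMIs, leaving them out kept 124281 of 237883 UMIs after TAK-981 and 140023 of 336281 after vehicle. The pooled log2 ratio of the share was then -0.054 in cells without and -0.30 in cells with CD8 UMIs.

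In myeloid cells the members spread more widely, with fewer UMIs a gene than in T cells. The median log2 ratio over 80 members was -0.078, against -0.049 over all genes, with intervals below 0 for 22 (18.5% of all genes), above 0 for 8 (19.0%) and across 0 for 50. Here too member intervals were narrower, with a median half-width of 0.15 against 0.61 over all genes. At least 20% lower were 5 of 80, where 29.7% of 2361 genes were as low, and 1 was 25% higher, where 26.8% of all genes were. In myeloid cells without Cd79a and Cd3 UMIs 3 were lower and 5 higher. Rpl14 was again the lowest with 9.78 UMIs per 10000 after TAK-981 and 13.2 after vehicle (-0.44, -0.62 to -0.25). Rps15, a gene mutated in some chronic lymphocytic leukaemias, had 4.49 and 5.96 (-0.41), and Rps25, which viral internal ribosome entry needs, had 7.03 and 9.12 (-0.38). Rpl29 lay just inside the lower limit (-0.33) and Rps27l just outside it (-0.32). The 8 members with intervals above 0 were Rpl37, Rps28, Rpl35a, Rpl38, Rps29, Rpl39, Rps27 and Rpl37a, all with 330 or fewer coding bases and with ratios of 0.19 to 0.29. Rpl23a had the highest ratio, 0.41, from 99 and 110 UMIs, with an interval of -0.0014 to 0.81.

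**Figure D4:**
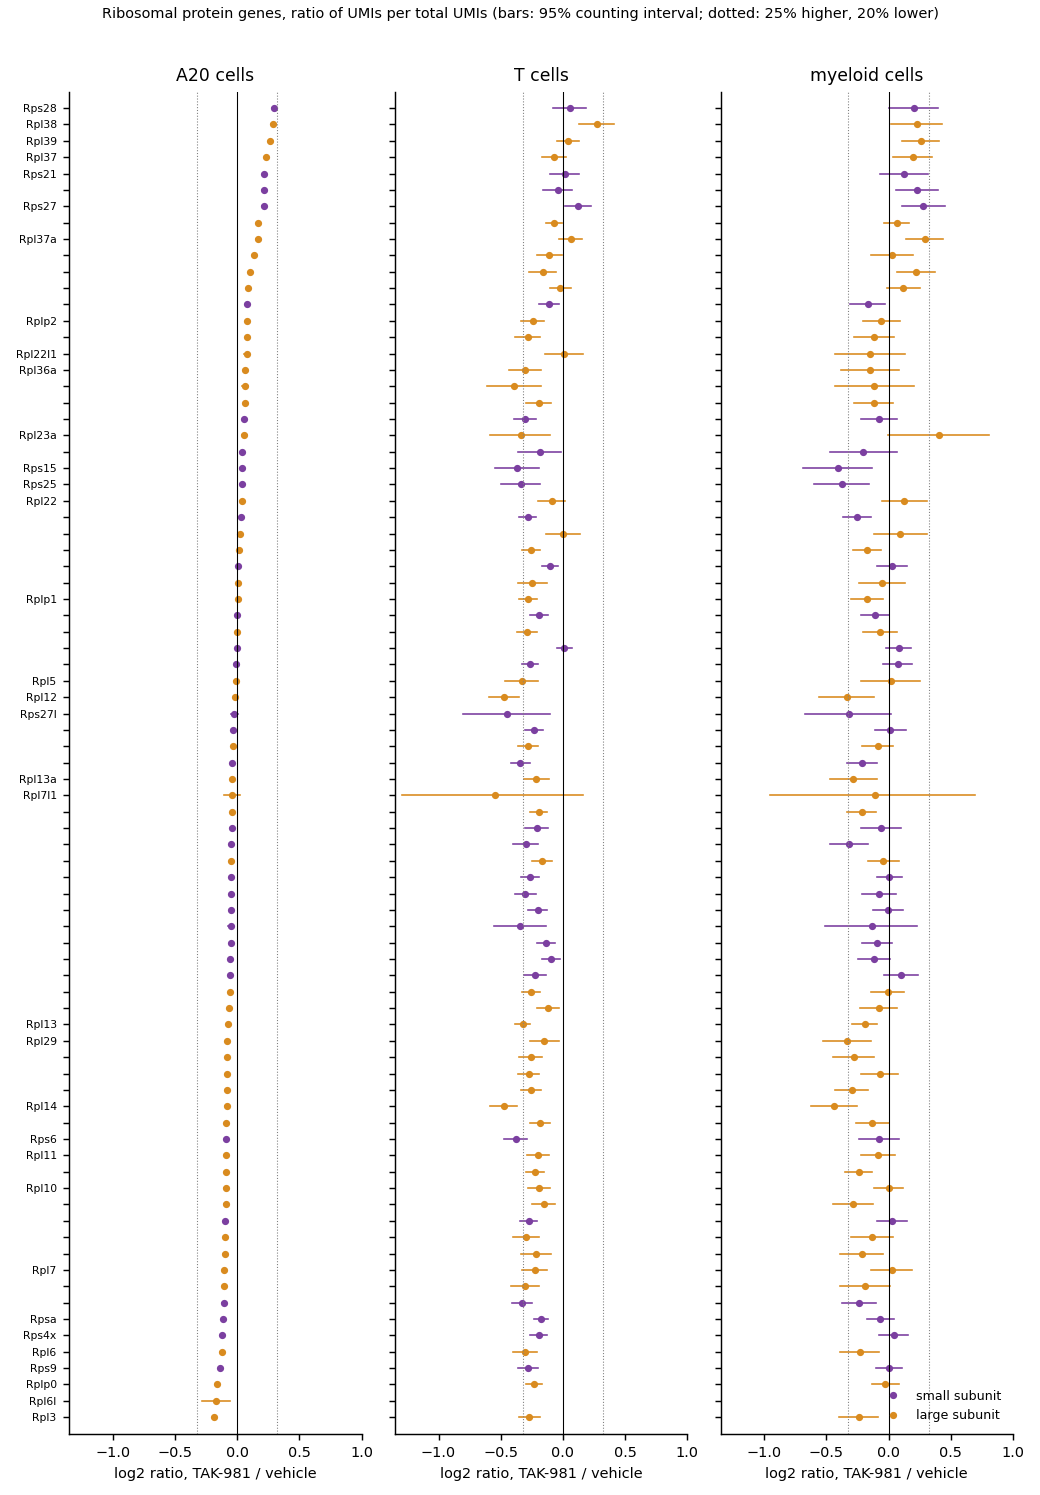
Log2 ratio of TAK-981 over vehicle (horizontal axis) for each ribosomal protein gene with at least 50 UMIs, in the order of the ratios in A20 cells with names for those chosen by the naming rule, in 3 panels for A20, T and myeloid cells; bars are 95% counting intervals and dotted lines mark 25% higher and 20% lower. In A20 cells all points lie between -0.19 and 0.29, in T cells 66 intervals lie below 0, and in myeloid cells 50 intervals hold 0.

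Other copies were measured beside their partners or were hardly detected. Rpl22, which normal T cell development requires, and its copy Rpl22l1 had log2 ratios of 0.036 and 0.076 in A20 cells, -0.091 (-0.20 to 0.020) and 0.0093 (-0.15 to 0.16) in T cells, and 0.13 and -0.15 in myeloid cells, where both intervals held 0. The A20 value of Rpl22 was -0.018 when set against the median of all genes. Rpl7 and Rpl7l1 had -0.10 and -0.039 in A20 cells, -0.23 (-0.33 to -0.13) and -0.54 (-1.30 to 0.16) in T cells, and 0.026 and -0.11 in myeloid cells, where both intervals held 0. In T and myeloid cells Rpl7l1 had 22 to 65 UMIs a library, so its distance from Rpl7 there is imprecise. Rpl10 had -0.092 in A20 cells and -0.19 in T cells, and its copy Rpl10l, known from testis, had 0 UMIs in the 3 classes. Rpl3l, the heart and muscle copy of Rpl3, had 1 UMI in A20 cells of each library, and Rpl39l had 1 UMI, in vehicle T cells. Rps4x, the X-linked small subunit gene, had 56.9 and 62.0 UMIs per 10000 in A20 cells (-0.12) and 58.1 and 66.4 in T cells (-0.19). As a share of ribosomal protein UMIs the T cell ratios of Rpl10 and Rps4x were 0.012 and 0.011, which is close to the whole set. The muscle and testis copies were therefore at or near 0 in both libraries.

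Other genes of protein synthesis were taken by list, with the same measure. Of ribosomal proteins outside the naming rule, Fau had 0.011 in A20, 0.021 in T and 0.14 in myeloid cells, Rpl36al 0.055, 0.034 and 0.11, and Gnb2l1 (the Rack1 gene) -0.11, -0.25 and -0.21. None of these values was past either limit. Translation factors with pyrimidine starts had medians of -0.094, -0.15 and -0.23. In A20 cells 1 of 19 was 20% lower, the RNA-binding protein Hnrnpa1 (-0.36, -0.38 to -0.34), in T cells 2 of 19 and in myeloid cells 5 of 19, where 4.02, 23.1 and 29.7% of all genes were. The nucleolar protein Npm1 had -0.46 (-0.56 to -0.35) and the elongation factor Eef1g -0.56 (-0.82 to -0.31) in T cells, while Tpt1 had -0.0040, 0.031 and 0.094 in the 3 classes. Other initiation factors had medians of -0.10, -0.038 and -0.30. At least 20% lower were 0 of 20 in A20 (all genes 4.02%), 4 of 19 in T (23.1%) and 8 of 18 in myeloid cells (29.7%), and 1 myeloid gene was 25% higher (26.8%). The T cell count was near that of all genes. Eif5 was the highest of them in A20 cells (0.23), and Eif5a was the lowest in T cells (-0.49, -0.65 to -0.34).

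Ribosome assembly factors, which process rRNA and build the subunits in the nucleolus, were the list with the lowest medians in T and myeloid cells. In T cells 24 of 29 were at least 20% lower (all genes 23.1%) and 0 higher, with a median of -0.54. In T cells without Cd79a and Lyz2 UMIs it was 10 of 14, with a median of -0.63, and it was 7 of 15 (-0.29, all genes 25.8%) in T cells with CD8 UMIs and 14 of 16 (-0.73, all genes 26.9%) in those without. Nolc1, a nucleolar phosphoprotein, had 38 UMIs after TAK-981 and 126 after vehicle (-0.77, -1.34 to -0.24), and the small nucleolar ribonucleoprotein gene Nhp2 had 66 and 212 (-0.73, -1.15 to -0.32). In myeloid cells 9 of 11 were lower (all genes 29.7%) and 1 higher, with a median of -0.71, among them Ncl, encoding nucleolin, with 76 and 233 UMIs (-1.06, -1.45 to -0.68). Without Cd79a and Cd3 UMIs it was 5 of 6 (-0.67). In A20 cells 0 of 36 were 20% lower, with a median of -0.087. Pes1 was the lowest there (-0.31, -0.38 to -0.25) and Gnl3 the highest (0.10). In T cells the assembly factors were thus lower also in the pool of cells without CD8 UMIs. There the pooled ribosomal protein share was nearly equal and that of the median cell was lower after TAK-981. Cells with a Cd79a UMI were part of this pool. Without them 124281 of 237883 UMIs after TAK-981 and 140023 of 336281 after vehicle remained. The assembly factors were not measured in that remainder.

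RNA polymerase I genes, whose enzyme makes rRNA, had medians of -0.036, -0.25 and -0.30. At least 20% lower were 0 of 19 in A20 (all genes 4.02%), 3 of 10 in T (23.1%) and 2 of 5 in myeloid cells (29.7%), and another 2 of the 5 myeloid genes were 25% higher (26.8%). In A20 cells Taf1d stood at 0.26 and Taf1b at -0.24. Mitochondrial ribosomal proteins had medians of -0.052, -0.20 and -0.26, and 0 of 74 (all genes 4.02%), 26 of 61 (23.1%) and 12 of 33 (29.7%) were 20% lower. At least 25% higher were 0, 1 and 2 of them. In A20 cells they ran from -0.24 for Mrps31 to 0.19 for Mrpl1. Genes that control ribosomal protein translation, such as mTOR and its partners, had medians of 0.11, 0.17 and -0.057 over 16, 7 and 3 genes. Of these, the translation repressor gene Eif4ebp1 had -0.25 (-0.29 to -0.21) in A20 cells and its relative Eif4ebp2 0.33 (0.18 to 0.47). The lists share the low UMI numbers of T and myeloid cells, so that single values there carry wide intervals.

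**Figure D5:**
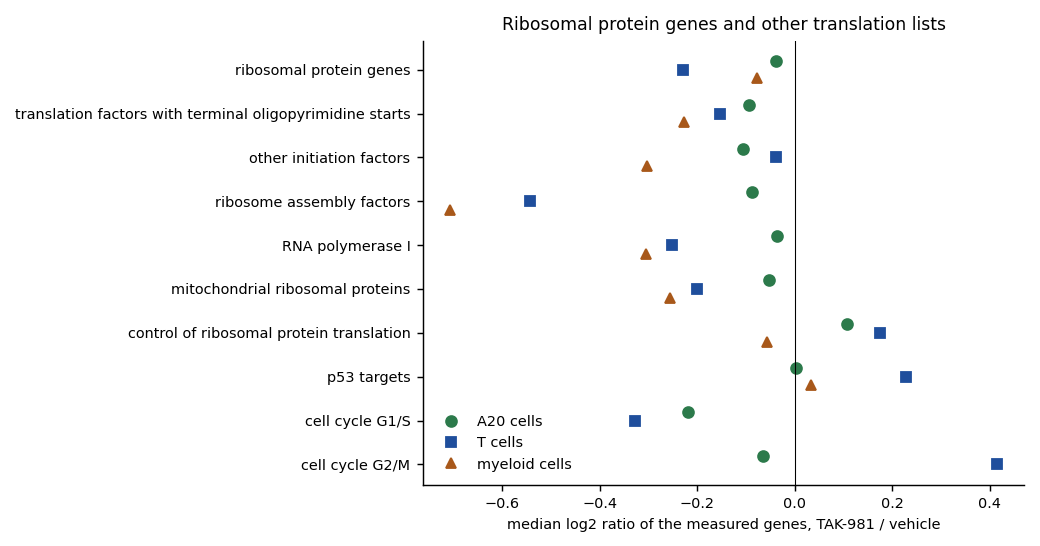
Median log2 ratio of TAK-981 over vehicle (horizontal axis) of the ribosomal protein genes and 9 other lists in A20 cells (green circles), T cells (blue squares) and myeloid cells (brown triangles), over genes with at least 50 UMIs. Ribosome assembly factors lie at -0.54 in T and -0.71 in myeloid cells, and at -0.087 in A20 cells.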

How the data were processed

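The deposited files hold raw UMI counts, in whole numbers for each gene in each barcode, from a Chromium 5′ kit per the labels' protocols. Cell Ranger 2.1.1 and Seurat 2 are named in the submitters' processing notes, with no role stated. Which genome and annotation were used is not given in the sources used here. Counts were summed per library and class in Python 3.11.15 (numpy 2.4.6, scipy 1.17.1, pandas 2.3.3, matplotlib 3.10.9) and divided by the class total. Ratios carry exact conditional binomial intervals and shares exact Clopper-Pearson intervals, checked on simulated data. UMIs are taken as independent, so variation between cells and mice is left out. Doublets were not called, and RNA from lysed cells was not removed. Coding lengths are those of the principal transcript in the GENCODE annotation, found for 83 of 84 members. Genes with near-identical copies, such as Rps18 and Rpl23a, are uncertain one by one, since reads could be split or lost in the authors' counting. Members, gene lists, markers and the rule for named genes (the 5 highest and 5 lowest in A20 cells and 3 of each in T and myeloid cells, copies, stalk and landmark genes, and genes next to the limits of 25% higher and 20% lower) were chosen with earlier results of these data known. Alternatives were the mitochondrial limit, a stricter cell rule, equal weight per cell, thinning, other denominators and scaling, and the UMI minimum. Some results for single genes are not reported here.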

Additional observations from a re-analysis of the deposited data

Results flagged for a closer look

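Of the named members, 5 had counting intervals on opposite sides of 0 in A20 cells and in T or myeloid cells, and the differences between classes were not tested. Rpl36a had a log2 ratio of 0.064 (0.051 to 0.078) in A20 and -0.31 (-0.43 to -0.18) in T cells, and Rplp2 had 0.081 (0.071 to 0.091) and -0.24 (-0.33 to -0.15). Rps15 stood at 0.042 in A20, -0.37 in T and -0.41 in myeloid cells. Rps25 stood at 0.037 in A20, -0.34 in T and -0.38 in myeloid cells. Rpl23a had 0.058 in A20 and -0.34 (-0.58 to -0.10) in T cells. The whole set had a T cell log2 ratio of -0.20. As a share of ribosomal protein UMIs, the T cell intervals of these 5 genes all held 0. They were -0.23 to 0.026 for Rpl36a, -0.13 to 0.056 for Rplp2 and -0.34 to 0.0092 for Rps15. For Rps25 and Rpl23a they were -0.29 to 0.024 and -0.38 to 0.10. In myeloid cells Rps15 and Rps25 stood at -0.34 and -0.31 on that measure.

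Barcodes left out for 10% or more mitochondrial UMIs differed between the libraries as well. Those that met the other A20 criteria, 275 after TAK-981 and 88 after vehicle, had ribosomal protein shares of 16.4% and 18.1%. Shorter members made up 50.9% (50.8 to 51.1) of ribosomal protein UMIs after TAK-981 and 49.3% (49.1 to 49.6) after vehicle. Median mitochondrial share in these barcodes was 14.5% after TAK-981 and 12.3% after vehicle, and median depth 5972 and 7622 UMIs. The part of both in these differences was not tested.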

How the results depend on the processing

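No paired analysis was possible because each arm had 1 library and no result comes from a test. Of 100 alternative values for totals and counts, 46 kept their direction and size, 48 moved and 6 turned round, and the cause was not tested. A share or difference had moved when it left the counting interval of the main value. A gene count had moved when it changed past a set fold or to or from 0. The A20 log2 ratio of the total share (-0.018) was 0.0068 under 5% mitochondrial UMIs, 0.011 in depth group 4 (most UMIs per cell), and 0.0024, 0.014 and 0.055 in the mitochondrial bins of 1 to 2, 2 to 3 and 3 to 5%. It was -0.072 with scaling to the median gene, -0.048 with no mitochondrial limit, -0.0061 with at least 3 Cd79a UMIs, -0.051 with equal cells, -0.0091 without mitochondrial and immunoglobulin UMIs, -0.053 after thinning, -0.12, -0.035 and -0.039 in depth groups 1 to 3, and -0.034 and -0.055 in the mitochondrial bins of 0 to 1 and 5 to 10%. The A20 short-member difference (2.27 points) was 2.17 under 5% mitochondrial UMIs, 2.31 with no limit, 2.37 with equal cells and 2.42 after thinning. In depth groups 1 to 4 it was 2.69, 1.73, 1.84 and 2.01, and in mitochondrial bins 2.11, 1.97, 1.90, 1.20 and 1.54. With no UMI minimum 1 A20 member was 25% higher (Rpl3l, 1 UMI in each library). The T cell log2 ratio was -0.18 with scaling to the median gene, -0.23 with the stricter rule, -0.24 with equal cells, -0.24 after thinning, -0.37 with and -0.0031 without CD8 UMIs, and -0.32 and -0.074 in these sets with equal cells, where 44 and 3 members were 20% lower and 0 and 4 were 25% higher. T cell members 20% lower numbered 7, 24 and 25 with scaling to the median gene, the stricter rule and equal cells, and the short-member difference was 2.00 with the stricter rule and 1.97 with CD8 UMIs. The myeloid log2 ratio was 0.0055 with the stricter rule and -0.018 with scaling to the median gene. Myeloid members 20% lower numbered 3 with that scaling, 3 with the stricter rule and 3 with equal cells, those higher 3 and 5 under the first 2, and the short-member difference was 0.23 after thinning. For single genes, 131 of 219 values held and 88 moved. The sign changed in 16, of which 0 were past a limit of 25% higher or 20% lower and 5 had a counting interval clear of 0. These were Rpl22 in A20 cells (0.036, to -0.018 with scaling to the median gene) and 4 genes in T cells taken as a share of ribosomal protein UMIs: Rpl10 (-0.19 to 0.012), Rpl11 (-0.20 to 0.0040), Rps4x (-0.19 to 0.011) and Rpsa (-0.17 to 0.030). T and myeloid cells rest on 39 to 60 cells a library, which limits single genes there.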

Other observations

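Cell cycle and p53 genes were measured beside the ribosomal protein genes. G1/S genes had a median log2 ratio of -0.22 in A20 cells, with 3 of 16 at least 20% lower (all genes 4.02%), among them the replicative helicase gene Mcm6 (4911 UMIs after TAK-981 and 10846 after vehicle, -0.44, -0.48 to -0.39) and the uracil glycosylase gene Ung (-0.41). In T cells their median was -0.33, with 6 of 11 lower (all genes 23.1%), and in myeloid cells 1 gene was measured, at -0.32. G2/M genes had -0.064 in A20 cells, with Mki67 at 0.36 (0.32 to 0.40). In T cells 9 of 13 G2/M genes were at least 25% higher, where 20.9% of all genes were, with a median of 0.42 and with the cyclin gene Ccna2 at 87 and 90 UMIs (0.91, 0.46 to 1.35). In myeloid cells 1 G2/M gene was measured, at -0.22.

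Targets of p53 had medians of 0.0018 in A20, 0.23 in T and 0.034 in myeloid cells, over 14, 6 and 5 genes. With the stricter cell rule the medians were 0.00044, -0.30 and -0.30, over 13, 3 and 5 genes. The sign in T and in myeloid cells thus depended on the cells taken. In A20 cells Trp53inp1 (0.53, 0.36 to 0.70) and Pmaip1, encoding the death-promoting protein Noxa (0.47, 0.32 to 0.61), were the highest, while Bbc3, encoding Puma, had -0.15. In myeloid cells the cell cycle inhibitor gene Cdkn1a had 383 UMIs after TAK-981 and 447 after vehicle (0.33, 0.13 to 0.53) and Bax 77 and 188 (-0.73, -1.13 to -0.34).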
